A study of Mus musculus with 12 samples.

Results

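Semaphorins of classes 5, 6 and 7 are 7 genes in the mouse, Sema5a, Sema5b, Sema6a, Sema6b, Sema6c, Sema6d and Sema7a. They were chosen by name from the 49585 genes of the deposited count table, and each symbol matched 1 Ensembl gene. All 7 were among the 18451 genes with enough counts for a test. Their levels were followed in nuclear RNA of mouse spinal cord microglia, the resident macrophages of the cord. The 12 libraries came from C57BL/6 mice: 3 from sham-operated mice, whose labels carry the time of 7 days, and 3 each from mice at 3, 7 and 14 days after spinal cord injury. Per the labels' protocols, each library pooled the cords of 3 animals, from 5 mm on either side of the lesion, and an antibody on magnetic beads pulled out the nuclei that carried green fluorescent protein (GFP). The labels do not name the allele or promoter that drove GFP and give no age of the animals; GFP-positive nuclei were captured in all 4 groups, sham included.

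Semaphorins are guidance cues that signal mainly through plexins, receptors that remodel the actin cytoskeleton and the adhesion of the responding cell. Class 5 members span the membrane and carry thrombospondin repeats, class 6 members span the membrane and bind class A plexins, and Sema7a is held in the membrane by a lipid anchor and binds plexin C1 and integrins that contain the beta-1 chain. In the nervous system they are known for steering and repelling axons, and in immune cells for effects on cell contact, migration and cytokine release.

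Total counts per library ranged from 4003480 to 10670804. All 12 microglial marker genes examined were detected in every library, and their summed level was 5250.2 to 6824 CPM (counts scaled so that every library has the same total) in sham, 3728 to 4536 CPM at 3 days, 5213 to 6258 CPM at 7 days and 4531 to 5521 CPM at 14 days. Markers of other cells of the cord were also present. Sham replicate 4 stood apart from the other 11 libraries on the second principal component (-119.8, the next library -26.8), and held 4823 CPM of astrocyte markers, beside 653 and 1753 CPM in sham replicates 2 and 3. Many results that rest on this library are given with and without it, and others, such as correlations over all libraries, only with it. Sums of markers are in CPM of the library total; levels of single genes are in CPM scaled by the trimmed mean of M values (TMM), as mean ± SD with n = 3 libraries. Log2 fold changes are given ± SE, and a gene was called where its p from edgeR's quasi-likelihood test, adjusted by the Benjamini-Hochberg method (BH) over the 18451 genes, was below 0.05. The p-values measure the spread between these libraries, each of which already averages 3 animals.

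Upstream sequences are shown for Sema7a, Sema6b and Sema6d, because each of these genes changed in at least 2 of the comparisons. Sema6a also changed in at least 2 of them, but no RefSeq promoter was matched to it. They are the 250 bases before the RefSeq start (build GRCm38.p6), 5′ to 3′ on the gene's strand, at chr9:57939862-57940111 (plus strand) for Sema7a, chr17:56140344-56140593 (minus strand, the first of 2 start sites) for Sema6b and chr2:124089719-124089968 (plus strand, the first of 2 start sites) for Sema6d. Capitals mark matches to the GC box, the letters GGGCGG on either strand.
Sema7a: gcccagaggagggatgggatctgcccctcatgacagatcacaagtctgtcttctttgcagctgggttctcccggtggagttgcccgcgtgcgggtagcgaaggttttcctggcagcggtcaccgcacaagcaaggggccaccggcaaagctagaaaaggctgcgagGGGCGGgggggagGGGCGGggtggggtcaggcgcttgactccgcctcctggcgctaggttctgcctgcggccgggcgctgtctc
Sema6b: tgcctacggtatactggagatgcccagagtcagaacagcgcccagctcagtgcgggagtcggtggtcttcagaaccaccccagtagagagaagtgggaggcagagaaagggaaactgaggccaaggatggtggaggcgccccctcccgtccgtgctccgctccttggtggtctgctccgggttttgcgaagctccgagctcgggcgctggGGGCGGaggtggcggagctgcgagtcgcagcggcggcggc
Sema6d: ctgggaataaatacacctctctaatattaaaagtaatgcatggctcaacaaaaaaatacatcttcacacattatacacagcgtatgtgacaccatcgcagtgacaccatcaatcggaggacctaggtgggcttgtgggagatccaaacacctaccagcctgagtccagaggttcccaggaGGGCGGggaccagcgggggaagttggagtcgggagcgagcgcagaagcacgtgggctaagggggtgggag
The 3 windows hold 2, 1 and 1 GC boxes, in that order, and no 2 matches overlap. Of 32536 promoters of 250 bases, 33.0% hold at least 1 GC box. The windows had a GC content of 66.4% for Sema7a, 66.0% for Sema6b and 52.4% for Sema6d, and held 17, 20 and 9 CpG dinucleotides, beside medians of 52.4% and 6 over all promoters. The other motifs searched, on both strands, were AP-1 (TGANTCA, in 6.73% of all promoters), PU.1 (GAGGAAG, 10.7%), STAT (TTCNNNGAA, 7.04%) and the TATA box (TATAAA, 12.3%). None of these letters occurred in the 3 printed windows, which says nothing about the factors. The window of the second Sema6b start site held 1 AP-1 and 1 PU.1 match beside 1 GC box, and that of Sema5a held 5 GC boxes. In all, 6 of the 7 members matched a RefSeq promoter, all but Sema6a.

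Compared per length, Sema6d was the most abundant of the 7 in each of the 12 libraries. It made up 29.7% to 45.6% of the summed RPKM (read counts scaled by gene length and library total, as deposited) of the 7 genes. Its mean level was 10.4 ± 6.87 RPKM in sham, 9.61 ± 4.41 RPKM at 3 days, 3.34 ± 0.931 RPKM at 7 days and 10.5 ± 0.801 RPKM at 14 days (SD, n = 3 each), and without sham replicate 4 the sham mean was 6.56 ± 2.30 RPKM (n = 2). That placed it above 70.5%, 66.8%, 37.4% and 68.2% of 13904 tested protein-coding genes at those points, and above 55.4% in sham without replicate 4. Sema5b and Sema6c were the least abundant pair in every library, with group means between 0.304 and 1.37 RPKM.

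**Figure D1:**
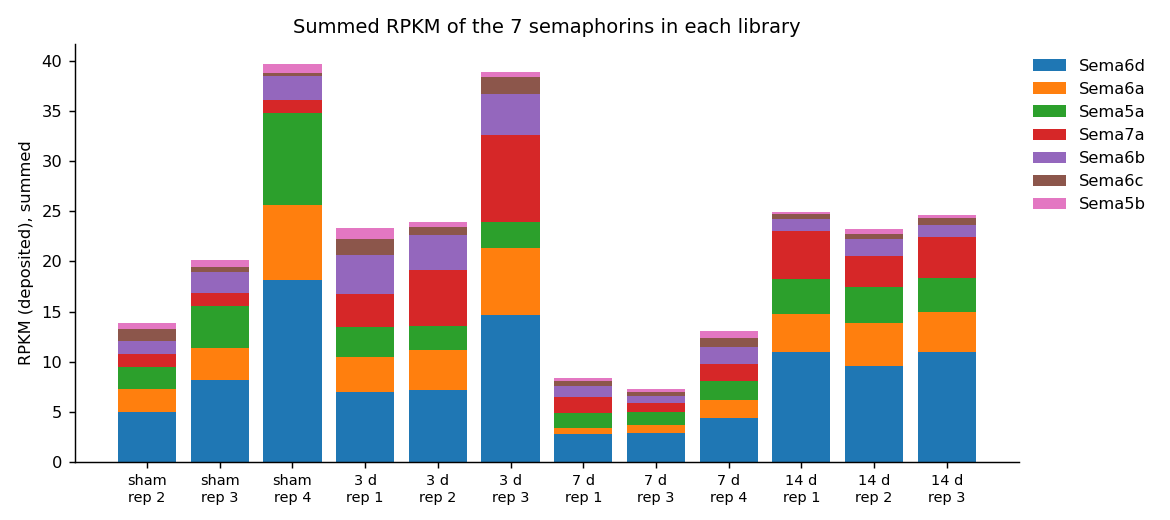
Stacked bars give the deposited RPKM of the 7 semaphorins in each library, sham and then 3, 7 and 14 days after injury, and the height of a bar is their sum. The 3 libraries at 7 days sum to 7.30 to 13.1 RPKM and lie below the other 9, the lowest of which, sham replicate 2, sums to 13.9 RPKM.

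The summed level of the 7 genes was lowest at 7 days. It was 13.9, 20.2 and 39.7 RPKM in sham replicates 2, 3 and 4, then 23.3, 24.0 and 39.0 RPKM at 3 days, 8.38, 7.30 and 13.1 RPKM at 7 days, and 24.9, 23.2 and 24.6 RPKM at 14 days. Sham replicate 4 and 3-day replicate 3 held the highest sums. The make-up of the sum also differed between groups: Sema7a contributed 5.21% of it in sham, and 20.4%, 15.0% and 16.5% at 3, 7 and 14 days, while Sema5a contributed 21.2% in sham, and 9.21%, 16.3% and 14.3% at those times. Without replicate 4 the sham shares were 7.73% for Sema7a and 18.8% for Sema5a. In bulk RNA, fewer cells that express a gene and less RNA of it per cell cannot be told apart.

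Across the 4 groups, 5 of the 7 genes differed (Sema5a, Sema6a, Sema6b, Sema6d and Sema7a; edgeR quasi-likelihood F-test, BH-adjusted p = 0.018, 0.0122, 0.00669, 0.0271 and 0.00155), where 26.4% of all tested genes were called. Sema5b and Sema6c did not pass (edgeR BH-adjusted p = 0.128 and 0.0948). Against sham, 1 of 7 rose at 3 days, Sema7a, where 20.0% of all genes were called and 10.9% rose. At 7 days 3 of 7 fell, Sema5a, Sema6a and Sema6d, and none rose, where 9.28% were called and 4.67% fell. At 14 days 1 of 7 rose, again Sema7a, where 9.82% were called and 5.02% rose. These 3 comparisons share the sham libraries and are not independent of each other. The libraries of the 2 groups did not overlap for 2, 3 and 2 of the 7 genes at 3, 7 and 14 days. Of all tested genes, 34.2%, 22.7% and 29.7% did not overlap at those times. The median log2 fold change of the 7 genes was 0.07 at 3 days, -0.71 at 7 days and -0.43 at 14 days, beside -0.03, 0.01 and -0.05 over all tested genes. These medians include sham replicate 4 and are not given without it. Without it the values of Sema5a, Sema6a and Sema6d against sham moved upward at each time, as given for each gene below.

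Between times, 4 of 7 fell at 7 days against 3 days, Sema6a, Sema6b, Sema6d and Sema7a, where 13.4% of all genes were called and 7.52% fell. Sema6a was the 1 of 7 that rose at 14 days against 7 days, where 2.19% were called and 1.35% rose. At 14 days against 3 days 1 of 7 fell, Sema6b, where 7.31% were called and 5.14% fell. The median log2 fold change of the 7 genes was -1.51 at 7 against 3 days, 1.04 at 14 against 7 days and -0.65 at 14 against 3 days, beside 0.01, -0.05 and -0.01 over all genes. These comparisons share libraries with those against sham. The groups did not overlap for 6 of the 7 genes at 7 against 3 days, 4 at 14 against 7 days and 4 at 14 against 3 days. Of all tested genes, 39.7%, 30.7% and 43.1% did not overlap in these comparisons. The share of all genes for which 1 group lay apart from all other libraries was not counted.

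**Figure D2:**
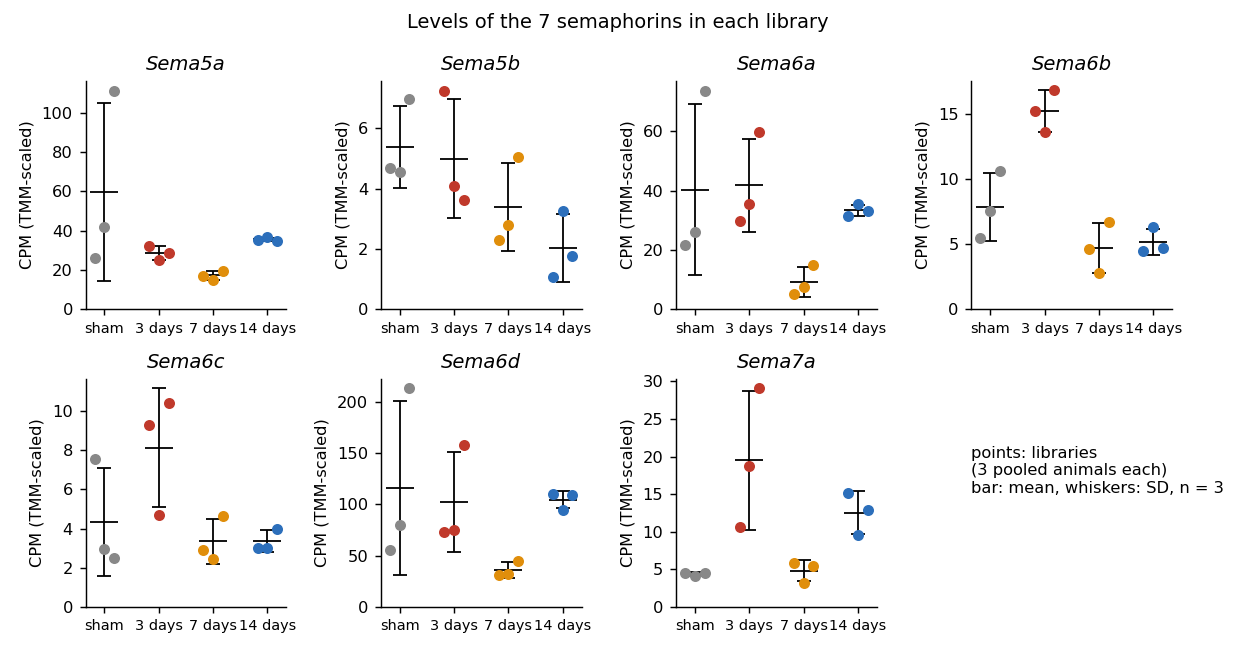
Points give the level of each semaphorin in CPM (TMM-scaled) in each library, with the mean as a bar and the SD as whiskers (n = 3 libraries per group), in the order sham, 3, 7 and 14 days. Sema7a lies between 4.10 and 4.52 CPM in the 3 sham libraries and between 10.7 and 29.1 CPM at 3 days, while the sham points of Sema5a, Sema6a and Sema6d spread widely, with 1 library at 111, 73.6 and 213 CPM.

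Sema7a (ENSMUSG00000038264; GRCm38 chromosome 9, 57940112 to 57962865, plus strand) is the lipid-anchored class 7 member. Its level was 4.52, 4.10 and 4.46 CPM in sham replicates 2, 3 and 4, then 10.7, 18.7 and 29.1 CPM at 3 days, 5.84, 3.16 and 5.46 CPM at 7 days, and 15.2, 9.55 and 12.9 CPM at 14 days. Each library at 3 and at 14 days lay above each sham and each 7-day library, and the 7-day and sham libraries overlapped. Sema7a averaged 19.5 ± 9.22 CPM at 3 days, against 4.36 ± 0.230 CPM in sham, a log2 fold change of 2.17 ± 0.38 (edgeR BH-adjusted p = 0.00135), and stayed called whichever of the 6 libraries compared was left out (lowest value 1.75, without 3-day replicate 3). At 14 days it averaged 12.5 ± 2.82 CPM, 1.52 ± 0.38 above sham on the log2 scale (edgeR BH-adjusted p = 0.0215). That call ended without 14-day replicate 1 (1.36, edgeR BH-adjusted p = 0.0974), 14-day replicate 3 (1.51, 0.0722) or sham replicate 3 (1.48, 0.0505). At 7 days Sema7a was not distinguishable from sham (0.14 ± 0.40, edgeR BH-adjusted p = 0.851).

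The level of Sema7a at 7 days was below that at 3 days by 2.03 ± 0.37 on the log2 scale, a fall to 4.82 ± 1.45 CPM at 7 days (edgeR BH-adjusted p = 0.00464) that held without each library in turn. Relative to 7 days, the 14-day level was higher by 1.38 ± 0.37, with no overlap (as in 30.7% of all tested genes) but short of the threshold (edgeR BH-adjusted p = 0.0654), which it passed by DESeq2 (adjusted p = 0.0132). In order, the group means ran 3 days, 14 days, 7 days and sham, and neither 14 against 3 days (-0.65 ± 0.35, edgeR BH-adjusted p = 0.292) nor 7 days against sham differed beyond the spread. Counts behind these values were 16 to 304 per library.

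Some marker sums of other cells were, like Sema7a, higher at 3 and 14 days than at 7 days. Summed endothelial markers (12 genes) were 45.9, 53.1 and 191 CPM in sham, 330.1 to 786 CPM at 3 days, 52.9 to 80.7 CPM at 7 days and 484 to 499 CPM at 14 days. Of the 12, 11 rose at 3 days and 6 at 14 days against sham with none falling, 1 fell at 7 days, and at 7 days 4 of them had 0 counts in replicate 1 and 1 in replicate 3. Summed fibroblast and pericyte markers (12 genes, of which 2 rose at 3 days, 1 at 7 days and 2 at 14 days, with none falling) were 72.6, 99.5 and 499 CPM in sham, 407 to 978 CPM at 3 days, 71.1 to 179.5 CPM at 7 days and 735 to 856 CPM at 14 days. Summed markers of monocyte-derived macrophages (12 genes, 9 of them tested, of which 5 rose and 0 fell at 3 days, 2 rose and 0 fell at 7 days, and 2 rose and 2 fell at 14 days) were 192 to 268 CPM in sham, 1223 to 1723 CPM at 3 days, 331 to 672 CPM at 7 days and 789 to 914 CPM at 14 days. At 3 days Fn1 alone held 1192, 1257 and 756 CPM of the monocyte-derived sums, and Rgs5 200, 197 and 726 CPM of the fibroblast and pericyte sums. Against sham at 3 days, the exact two-sided permutation test gave p = 0.3 for the fibroblast and pericyte sum and 0.1 for the other 2. In sham replicate 4, which held 191 CPM of endothelial and 499 CPM of fibroblast and pericyte markers, Sema7a was at 4.46 CPM. Summed oligodendrocyte markers were also lower at 7 days (624 to 936 CPM) than at 3 days (1019 to 1493 CPM) and 14 days (1037 to 1535 CPM), with 894 to 1890 CPM in sham. Summed oligodendrocyte precursor markers were 195 to 480.1 CPM in sham, and 261 to 358, 156 to 208 and 291 to 326 CPM at 3, 7 and 14 days. The part of these markers in the Sema7a result was not tested.

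**Figure D3:**
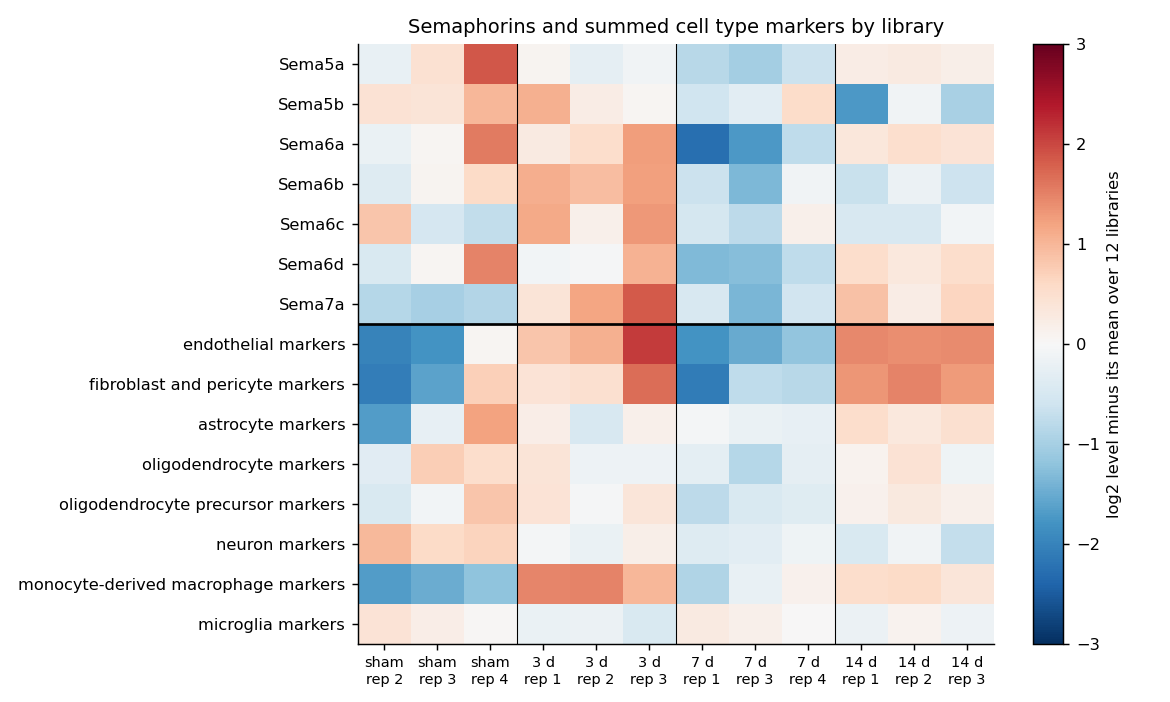
Each row gives the log2 level of a semaphorin or of a summed marker list minus its mean over the 12 libraries (colour scale, red higher and blue lower), with libraries in columns from sham to 14 days. Sema6a, Sema6d, the endothelial list and the fibroblast and pericyte list are low at 7 days and high in 3-day replicate 3, and sham replicate 4 is high for Sema5a, Sema6a, Sema6d and astrocyte markers.

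Among the class 6 members, Sema6d (ENSMUSG00000027200; GRCm38 chromosome 2, 124089969 to 124667770, plus strand), a ligand of plexin A1, was at 55.5, 80.1 and 213 CPM in sham replicates 2, 3 and 4, then 72.8, 75.1 and 158 CPM at 3 days, 30.7, 31.8 and 44.9 CPM at 7 days, and 109.7, 95.0 and 109.6 CPM at 14 days. All 3 libraries at 7 days lay below the other 9. At 7 days Sema6d averaged 35.8 ± 7.91 CPM, against 116 ± 85.0 CPM in sham, a log2 fold change of -1.69 ± 0.41 (edgeR BH-adjusted p = 0.0215). The fold change was -0.91 and the call ended without sham replicate 4 (edgeR BH-adjusted p = 0.0744), and the call also ended without 7-day replicate 1 (-1.59, 0.086) or 7-day replicate 3 (-1.61, 0.0635), in a fit of the 2 groups alone (-1.70, 0.0826) and by limma (-1.25 and -1.44 with RPKM pseudocounts of 1 and 0.1, limma adjusted p = 0.0694 and 0.0646). Against 3 days, where the mean was 102 ± 48.7 CPM, the 7-day level was lower by 1.51 ± 0.41 on the log2 scale (edgeR BH-adjusted p = 0.0262), and by 1.04 without 3-day replicate 3 (edgeR BH-adjusted p = 0.171); this call also ended without 7-day replicate 1 or 3 (edgeR BH-adjusted p = 0.0998 and 0.094) and by limma (-1.23 and -1.44, 0.0562 and 0.0526). With both sham replicate 4 and 3-day replicate 3 left out, a setting chosen after the data were seen, the 2 falls were -0.92 and -1.03 and both were called (edgeR BH-adjusted p = 0.0158 and 0.00698). The 14-day libraries lay above the 7-day ones (1.55 ± 0.41, edgeR BH-adjusted p = 0.0618), a difference that passed by DESeq2 (adjusted p = 0.00599). At 3 and 14 days Sema6d was not distinguishable from sham (-0.18 ± 0.40 and -0.14 ± 0.40, edgeR BH-adjusted p = 0.792 and 0.857), and both signs turned without sham replicate 4 (0.60 and 0.63, edgeR BH-adjusted p = 0.159 and 0.174).

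Sema6a (ENSMUSG00000019647), a transmembrane ligand of plexins A2 and A4, was at 21.6, 25.9 and 73.6 CPM in sham replicates 2, 3 and 4, then 29.9, 35.7 and 59.7 CPM at 3 days, 5.22, 7.55 and 14.8 CPM at 7 days, and 31.5, 35.4 and 33.1 CPM at 14 days. Again the 3 libraries at 7 days lay below the other 9. Sema6a averaged 9.18 ± 4.99 CPM at 7 days, against 40.4 ± 28.9 CPM in sham, a log2 fold change of -2.09 ± 0.46 (edgeR BH-adjusted p = 0.0125). It was -1.33 without sham replicate 4 (edgeR BH-adjusted p = 0.0332) and -2.68 without 7-day replicate 4 (0.0132), and the call ended without 7-day replicate 1 (-1.83, 0.0565) and in a fit of sham and 7 days alone (-2.12, 0.0761). The 7-day level was below the 3-day mean of 41.8 ± 15.8 CPM by 2.17 ± 0.45 (edgeR BH-adjusted p = 0.00797), a call that ended without 3-day replicate 3 (-1.81, 0.0551). At 14 days Sema6a was higher than at 7 days by 1.83 ± 0.45 (edgeR BH-adjusted p = 0.0498). This call was lost without 7-day replicate 1 or 3 or any 1 of the 14-day libraries (1.56 to 1.90, edgeR BH-adjusted p = 0.133 to 0.204), and also with a stricter filter on low counts (1.85, 0.0547) or by limma on log2(RPKM + 1) or log2(RPKM + 0.1) (1.34 and 1.98, 0.0748 and 0.0606). The order of the means was 3 days, sham, 14 days and 7 days, and the first 3 did not differ beyond their spread (edgeR BH-adjusted p = 0.922 for 3 days against sham, 0.743 for 14 days against sham and 0.689 for 14 against 3 days). The place of sham rests on replicate 4: without it sham averaged 23.7 CPM, below the 14-day mean, and the log2 fold change against sham was 0.83 at 3 days and 0.49 at 14 days (edgeR BH-adjusted p = 0.0952 and 0.375).

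Sema6b (ENSMUSG00000001227; GRCm38 chromosome 17, 56123085 to 56140343, minus strand), a ligand of plexin A4, was at 5.43, 7.51 and 10.6 CPM in sham, 15.2, 13.6 and 16.8 CPM at 3 days, 4.59, 2.81 and 6.66 CPM at 7 days, and 4.50, 6.29 and 4.66 CPM at 14 days. The 3-day libraries lay above all 9 others. At 7 days Sema6b averaged 4.69 ± 1.93 CPM, against 15.2 ± 1.61 CPM at 3 days, a log2 fold change of -1.68 ± 0.35 (edgeR BH-adjusted p = 0.00815) that stayed called whichever of the 6 libraries was left out. At 14 days it averaged 5.15 ± 0.988 CPM, lower than at 3 days by 1.57 ± 0.36 on the log2 scale (edgeR BH-adjusted p = 0.0154), and this call ended without 3-day replicate 3 or any 1 of the 14-day libraries (edgeR BH-adjusted p = 0.0511 to 0.1). The difference of 3 days from sham, where the mean was 7.84 ± 2.60 CPM, was 0.97 ± 0.35 and missed the threshold (edgeR BH-adjusted p = 0.0606), and it passed without sham replicate 4 (1.25, edgeR BH-adjusted p = 0.0221), by DESeq2 (0.97, adjusted p = 0.0342) and by limma on log2(RPKM + 1) (0.75, adjusted p = 0.0372). Sema6b at 7 and 14 days was not distinguishable from sham (-0.71 ± 0.36 and -0.59 ± 0.37, edgeR BH-adjusted p = 0.23 and 0.327).

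Sema6c (ENSMUSG00000038777; GRCm38 chromosome 3, 95160457 to 95174024, plus strand), another transmembrane class 6 member, was at 7.54, 2.96 and 2.51 CPM in sham, 9.29, 4.68 and 10.4 CPM at 3 days, 2.92, 2.46 and 4.66 CPM at 7 days, and 3.00, 3.03 and 3.99 CPM at 14 days. Its 3-day libraries lay above the 7-day and 14-day ones and overlapped sham, where replicate 2 was higher than the other two. No pairwise difference passed the threshold, the closest being 7 against 3 days (-1.26 ± 0.46, edgeR BH-adjusted p = 0.0817). Without sham replicate 2 the 3-day level was higher than sham by 1.56 and passed (edgeR BH-adjusted p = 0.0334), as did the fall at 14 against 3 days in a fit of those groups alone (-1.28, 0.0166). Counts of 9 to 109 per library lay behind these values.

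Sema5a (ENSMUSG00000022231; GRCm38 chromosome 15, 32244810 to 32696341, plus strand), a ligand of plexin B3, was at 25.9, 41.6 and 111 CPM in sham replicates 2, 3 and 4, then 32.4, 25.1 and 28.4 CPM at 3 days, 17.1, 14.9 and 19.6 CPM at 7 days, and 35.4, 36.6 and 34.6 CPM at 14 days. The 7-day libraries were the lowest of the 12, and sham replicate 4 the highest. Sema5a averaged 17.2 ± 2.33 CPM at 7 days, against 59.7 ± 45.5 CPM in sham, a log2 fold change of -1.78 ± 0.39 (edgeR BH-adjusted p = 0.0122). Without sham replicate 4 it was -0.96 and still called (edgeR BH-adjusted p = 0.0179), as it was without each of the other 5 libraries compared. The call ended in a fit of the 2 groups alone (-1.79, edgeR BH-adjusted p = 0.0834) and by limma (-1.12 and -1.46 with RPKM pseudocounts of 1 and 0.1, limma adjusted p = 0.06 and 0.0551). Sema5a at 3 days stood at -1.05 ± 0.38 relative to sham (edgeR BH-adjusted p = 0.0618), and at -0.23 without sham replicate 4; without sham replicate 2 or 3 it passed (-1.42 and -1.28, edgeR BH-adjusted p = 0.00504 and 0.0386), and by DESeq2 as well (-1.07, adjusted p = 0.0299). At 14 days it was -0.74 ± 0.38 (edgeR BH-adjusted p = 0.23), turning to 0.08 without sham replicate 4 and passing without sham replicate 2 (-1.10, edgeR BH-adjusted p = 0.0333).

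Sema5b (ENSMUSG00000052133; GRCm38 chromosome 16, 35541145 to 35664732, plus strand), the other class 5 member, had only 7 to 38 counts per library. Its level was 4.67, 4.55 and 6.97 CPM in sham, 7.25, 4.08 and 3.63 CPM at 3 days, 2.30, 2.81 and 5.06 CPM at 7 days, and 1.05, 3.26 and 1.77 CPM at 14 days. The 14-day libraries lay below all 3 sham libraries and below all 3 at 3 days. The log2 fold change of 14 days against sham was -1.43 ± 0.51 and did not pass (edgeR BH-adjusted p = 0.0886), nor did that against 3 days (-1.31 ± 0.50, edgeR BH-adjusted p = 0.133). Genes annotated on the opposite strand lie inside Sema5a, Sema5b and Sema6d without sharing an exon with them, and those with a row in the table summed to at most 46 counts over the 12 libraries.

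**Figure D4:**
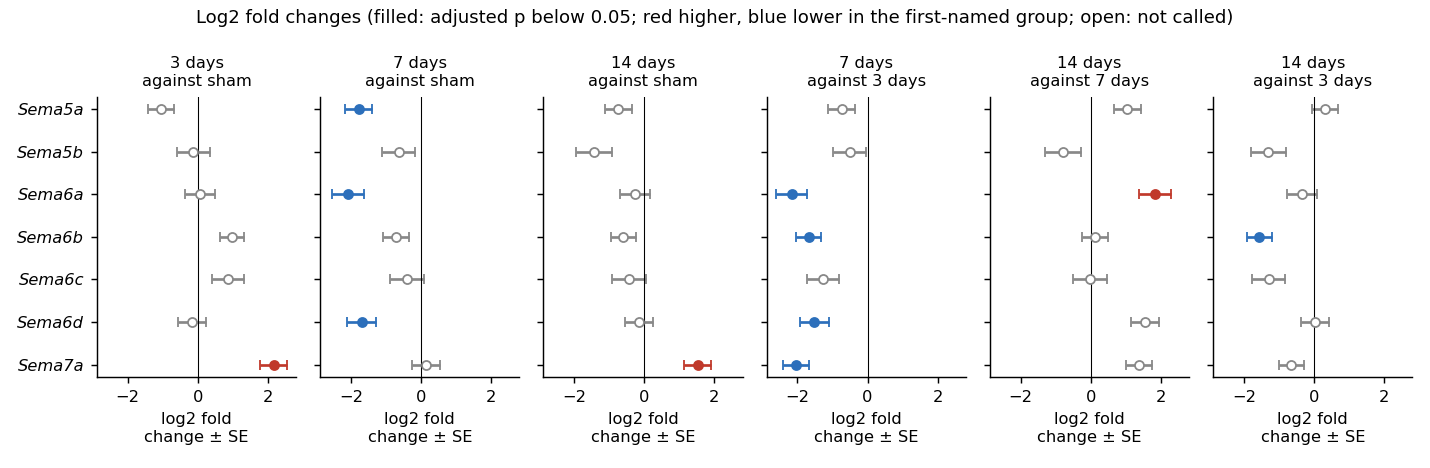
Points give the log2 fold change of each semaphorin in the 6 comparisons and whiskers its SE, with filled points for adjusted p below 0.05 (edgeR, all 12 libraries in the fit; red higher and blue lower in the first-named group) and open points for the rest. Sema7a is the filled rise at 3 days (2.17) and 14 days (1.52), and the filled falls at 7 days against 3 days reach -2.17 for Sema6a.

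The fall of Sema5a, Sema6a and Sema6d at 7 days against sham went with other values. Summed astrocyte markers (12 genes, 2 of which fell and 0 rose) were 1754 to 1988 CPM at 7 days, against 653, 1753 and 4823 CPM in sham. Summed oligodendrocyte precursor markers (12 genes, 1 rose and 3 fell) were 156 to 208 CPM at 7 days, against 195, 252 and 480.1 CPM in sham, and summed oligodendrocyte markers (12 genes, 0 rose and 5 fell) 624 to 936 CPM at 7 days, against 894 to 1890 CPM in sham. Summed neuron markers (14 genes, 6 of which fell) were 1648 to 1965 CPM at 7 days, against 3194 to 4235 CPM in sham. No gene of these 4 lists was at 0 counts in any library. In sham replicate 2, which had the lowest astrocyte sum of the 12 libraries, Sema5a, Sema6a and Sema6d were at 25.9, 21.6 and 55.5 CPM, above each of the 7-day libraries. Of the astrocyte markers, Slc1a3 was at 142 CPM in sham replicate 2, against 1484, 1266 and 1094 CPM at 7 days, most of the astrocyte sums there. The place of sham replicate 2 as the lowest astrocyte sum rests on Slc1a3. Slc1a2 was at 212 CPM in sham replicate 2, against 272, 178 and 269 CPM at 7 days. The part of these markers in the falls was not tested.

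The members varied together to different degrees over the 12 libraries. In log2 CPM, Pearson's r was 0.954 between Sema6a and Sema6d, 0.847 between Sema5a and Sema6d and 0.783 between Sema5a and Sema6a, and it was 0.02 between Sema5a and Sema7a and -0.29 between Sema5b and Sema7a. These values describe libraries that share group, depth and cell make-up and are given without a test. All correlations here include sham replicate 4, the highest library for Sema5a, Sema6a and Sema6d, and are not given without it. Over the tested genes with a mean of at least 10 CPM, 9322 in all, the genes whose pattern was most like each called member were named, up to 3 for each. For Sema5a these were Kcnq3 (r = 0.983), Sesn3 (0.961) and Gabrb1 (0.958); for Sema6a Prkaa2 (0.962), Fat4 (0.961) and Sorbs2 (0.954). For Sema6b they were Grik5 (0.969), Pde8a (0.961) and Ppp1r16b (0.94), and for Sema6d Fzd3 (0.965) and Tmod2 (0.963) are given. Sema7a was most like Utrn (0.94), Hmcn1 (0.93) and Cgnl1 (0.921). Utrn averaged 179 CPM in sham, and 445, 175 and 307 CPM at 3, 7 and 14 days.

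Of 8 receptor genes for these ligands, all tested, 2 rose and 1 fell at 3 days, 1 rose at 7 days, and 2 rose and 2 fell at 14 days against sham. Of all tested genes, 20.0%, 9.28% and 9.82% were called at those times. Plxnc1, the plexin that binds Sema7a, was at 26.8, 33.5 and 40.1 CPM in sham, 68.9, 95.2 and 94.4 CPM at 3 days, 51.3, 58.3 and 81.8 CPM at 7 days, and 98.8, 89.9 and 89.2 CPM at 14 days. Every injured library lay above every sham library. Plxnc1 rose by 1.37 ± 0.22 on the log2 scale at 3 days, 0.94 ± 0.22 at 7 days and 1.47 ± 0.22 at 14 days (edgeR BH-adjusted p = 0.000651, 0.017 and 0.000921). The call at 7 days ended without 7-day replicate 4 (0.68, edgeR BH-adjusted p = 0.0861) and in a fit of sham and 7 days alone (0.91, 0.136), and the other two held without each library and in the fits of 2 groups. For Itga1, the integrin alpha-1 chain that pairs with beta-1, the levels were 0.301, 0.91 and 10.3 CPM in sham, 11.6, 10.6 and 28.8 CPM at 3 days, 0.417, 2.46 and 1.86 CPM at 7 days, and 18.6, 18.4 and 17.3 CPM at 14 days. It was low at 7 days and in 2 sham libraries, and the log2 fold changes of 2.30 ± 0.78 at 3 days and 2.37 ± 0.79 at 14 days against sham missed the threshold (edgeR BH-adjusted p = 0.0503 and 0.0706). The sham mean behind both values rests mainly on sham replicate 4 (10.3 CPM), and values without it are not given. Itgb1, the beta-1 chain, rose at 14 days to 94.7 ± 2.67 CPM, against 58.2 ± 7.44 CPM in sham (0.70 ± 0.16, edgeR BH-adjusted p = 0.0138), a call that ended without 14-day replicate 1 (0.70, 0.0563) or 3 (0.68, 0.0673) or in a fit of the 2 groups alone (0.71, 0.0569).

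The class A plexins, receptors of the class 6 members, moved in different directions. Plxna1 rose at 3 days to 39.5 ± 13.2 CPM, against 11.3 ± 3.81 CPM in sham (1.79 ± 0.34, edgeR BH-adjusted p = 0.00229). Plxna4 fell at 3 days to 128 ± 8.59 CPM, against 276 ± 57.9 CPM in sham (-1.10 ± 0.20, edgeR BH-adjusted p = 0.00175). Both held without each library in turn. Plxna4 was also lower at 14 days (-0.77 ± 0.20, edgeR BH-adjusted p = 0.0243), which ended without any 1 of the 14-day libraries or sham replicate 3 (edgeR BH-adjusted p = 0.0517 to 0.101), in a fit of the 2 groups alone (-0.76, 0.0511) and by limma (-0.59 and -0.62, 0.097 and 0.103). Plxna2 did not pass against sham (log2 fold changes of 0.52, -0.69 and 0.38 at 3, 7 and 14 days), and neither did Plxna3 (0.65, 0.19 and -0.05). Plxnb3, a receptor of Sema5a, was lower at 14 days at 13.6 ± 1.70 CPM, against 36.2 ± 8.07 CPM in sham (-1.42 ± 0.25, edgeR BH-adjusted p = 0.00255), and against 37.6 ± 9.63 CPM at 3 days (-1.46 ± 0.24, edgeR BH-adjusted p = 0.00225), and both falls held without each library.

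At 7 days against 3 days 3 of the 8 receptors fell and none rose, where 13.4% of all tested genes were called and 7.52% fell. The receptors that fell were Plxna2 (-1.21 ± 0.26, edgeR BH-adjusted p = 0.00814), Itga1 (-3.38 ± 0.82, 0.0164) and Plxna1 (-1.05 ± 0.33, 0.045). Leaving out 3-day replicate 3 ended all 3 calls (-0.92, -2.75 and -0.75, edgeR BH-adjusted p = 0.0642, 0.101 and 0.243). The call of Itga1 also ended without 7-day replicate 1, and that of Plxna1 without 3-day replicate 2 or 7-day replicate 1 or 3 and by limma (-0.81 and -1.08, 0.0721 and 0.101). At 14 days against 7 days 2 of the receptors rose, where 2.19% of all tested genes were called and 1.35% rose. These receptors were Plxna2 (1.08 ± 0.26, edgeR BH-adjusted p = 0.0435) and Itga1 (3.46 ± 0.83, 0.0439). Neither call held without 7-day replicate 1 or 3 or any 1 of the 14-day libraries, and that of Itga1 also ended without 7-day replicate 4. By limma Plxna2 missed with both pseudocounts (0.86 and 1.19, 0.0798 and 0.0801) and Itga1 with that of 0.1 (3.34, 0.0571). At 14 against 3 days Plxnb3 was the only one of the 8 to pass, where 7.31% of all tested genes were called.

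**Figure D5:**
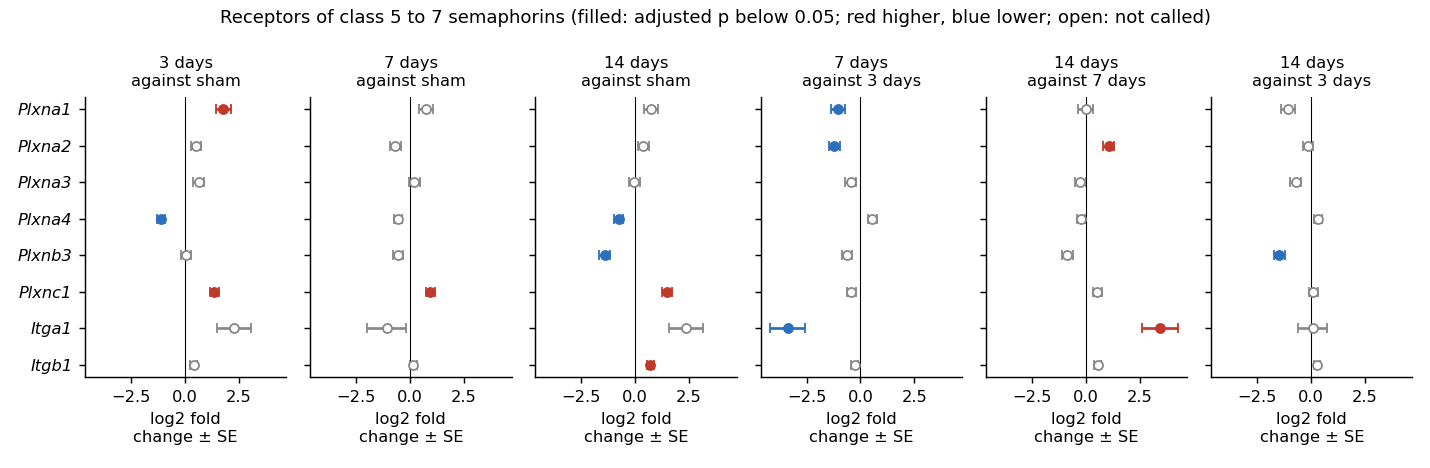
Points give the log2 fold change of the 8 receptor genes in the 6 comparisons and whiskers its SE, filled where the adjusted p was below 0.05 (edgeR, all 12 libraries in the fit; red higher and blue lower in the first-named group). Plxnc1 is filled and to the right in all 3 comparisons against sham (1.37, 0.94 and 1.47), and Plxna4 is filled and to the left at 3 and 14 days (-1.10 and -0.77).

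Of 20 genes of co-receptors and signalling downstream of plexins, 19 were tested and 4 rose at 3 days against sham, with none falling: Kdr, Mical1, Farp1 and Ptk7. Of all tested genes, 20.0% were called at 3 days and 10.9% rose. Kdr, a receptor of vascular endothelial growth factor that also counts among the endothelial markers, rose to 38.7 ± 10.8 CPM at 3 days, against 6.07 ± 0.754 CPM in sham (2.66 ± 0.26, edgeR BH-adjusted p = 1.19e-05). Mical1, a monooxygenase that takes actin filaments apart downstream of plexins, rose at 3, 7 and 14 days (1.83 ± 0.27, 1.49 ± 0.27 and 1.45 ± 0.27, edgeR BH-adjusted p = 0.000395, 0.00496 and 0.00423), and all 3 calls held without each library, though the 7-day call ended in a fit of sham and 7 days alone (1.46, 0.0815). The calls of Farp1 (0.88 ± 0.25, edgeR BH-adjusted p = 0.0222) and Ptk7 (2.03 ± 0.62, 0.0319) ended without 3-day replicate 3 (0.59 and 1.62), and that of Ptk7 also without 3-day replicate 1 or any 1 of the sham libraries. In the fit of the 2 groups alone neither passed (0.85 and 2.00, edgeR BH-adjusted p = 0.0966 and 0.07). At 7 days 1 of the 19 rose, Mical1, and 1 fell, the actin regulator Enah (-1.40 ± 0.31, edgeR BH-adjusted p = 0.0132), whose call ended without 7-day replicate 1 (-1.33, 0.0564), in the fit of the 2 groups alone (-1.41, 0.0741) and by limma on log2(RPKM + 1) (adjusted p = 0.0512). Without sham replicate 4 the fall of Enah was -0.84 and still called (edgeR BH-adjusted p = 0.0269). At 14 days Kdr (1.69 ± 0.26, edgeR BH-adjusted p = 0.000968) and Mical1 were the 2 that rose, and none fell. Over all tested genes 9.28% were called at 7 days and 9.82% at 14 days. The medians over the 19 genes were 0.22, 0.17 and 0.22 on the log2 scale at 3, 7 and 14 days, beside -0.03, 0.01 and -0.05 over all tested genes. Trem2 and Tyrobp, which form a complex with plexin A1 through which Sema6d acts in dendritic cells and osteoclasts, did not pass against sham (Trem2 -0.11, 0.62 and 0.42; Tyrobp -0.69, 0.84 and -0.41 at 3, 7 and 14 days).

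Between times, 1 of these 19 genes, Tyrobp, rose and 3 fell at 7 against 3 days, 1 rose at 14 against 7 days and 1 fell at 14 against 3 days. Those that fell at 7 against 3 days were Kdr (-2.01 ± 0.24, edgeR BH-adjusted p = 0.000388), Ptk7 (-1.86 ± 0.59, 0.0494) and Ptk2 (-0.92 ± 0.29, 0.0496). Kdr was the 1 that rose at 14 against 7 days (1.04 ± 0.24, edgeR BH-adjusted p = 0.0411) and fell at 14 against 3 days (-0.97 ± 0.23, 0.0201). How the calls of Kdr, Ptk7 and Ptk2 fared with a library left out is not given. Of all tested genes, 13.4%, 2.19% and 7.31% were called in these comparisons. Tyrobp averaged 132 ± 11.5 CPM at 7 days, against 45.4 ± 6.73 CPM at 3 days (1.53 ± 0.43, edgeR BH-adjusted p = 0.0311), with no overlap. The call held without 7-day replicate 4 and ended without any 1 of the other 5 libraries (edgeR BH-adjusted p = 0.0639 to 0.128) and by limma (1.50 and 1.51, 0.0667 and 0.0743). Among the 13 semaphorins of classes 3 and 4, 3 rose and 0 fell at 3 days, 1 rose and 1 fell at 7 days, and 3 rose and 1 fell at 14 days against sham. The shares of all tested genes called at those times were 20.0%, 9.28% and 9.82%. Sema4d, a transmembrane ligand of B plexins, was the 1 that rose at 7 days (0.60 ± 0.17, edgeR BH-adjusted p = 0.0361) and also rose at 3 and 14 days (0.59 ± 0.17 and 0.69 ± 0.17, 0.0234 and 0.0182). The 3-day call ended without 3-day replicate 2 or 3, the 7-day call without 7-day replicate 1 or 4 or sham replicate 4, and the 14-day call without any 1 of the 14-day libraries (edgeR BH-adjusted p = 0.0545 to 0.155), and none of the 3 passed in the fits of 2 groups (0.56, 0.58 and 0.70 at 3, 7 and 14 days, 0.0801, 0.247 and 0.0528). The medians over the 13 genes were 0.59, -0.64 and 0.26 at 3, 7 and 14 days, beside -0.03, 0.01 and -0.05 over all tested genes. From 3 to 7 days 3 of the 13 fell, Sema3a, Sema3b and Sema3c (-2.02, -2.13 and -2.04, edgeR BH-adjusted p = 0.0447, 0.0172 and 0.0264). Sema3b and Sema3c rose at 14 against 7 days (3.32 and 2.60, edgeR BH-adjusted p = 0.0128 and 0.0293). None of the 13 was called at 14 against 3 days. The shares of all tested genes called were 13.4%, 2.19% and 7.31%, in that order. How these calls fared with a library left out is not given.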

How the data were processed

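RNA of GFP-captured nuclei was measured in 12 libraries of mouse spinal cord. Per the labels' protocols, RNA was amplified by single-primer isothermal amplification before library preparation. The submitters' processing notes name featureCounts 1.4.6-p3 with GRCm38 and mm10. How reads were aligned, whether strand was used and how reads with several matches were counted is not given in the sources used here, so reads of overlapping genes on opposite strands may not be separated. The authors deposited Ensembl gene counts, not normalized, and RPKM values, scaled by gene length and library total; per the file headers both tables name each library by group and replicate.

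The 4 groups were fitted over all 12 libraries with edgeR 4.0.16 (R 4.3.3): filterByExpr, TMM scaling and the quasi-likelihood test, its p-values adjusted by Benjamini and Hochberg's method over 18451 genes (threshold 0.05; common biological coefficient of variation 0.271). Each SE was obtained as log2 fold change over the root of F. The 7 genes, the gene lists and the tests were chosen with earlier results of these data known. All 7 genes are named in every comparison; from 3 lists (receptors, co-receptors and signalling, other semaphorins) receptors are named, and otherwise up to 4 genes past the threshold per comparison. Genes most like a member are the 3 with the highest Pearson's r in log2 CPM (prior count 2, mean of at least 10 CPM), passing over predicted genes and shared symbols; 1 of them is not reported here. Marker sums of 14 cell types were set against sham by exact permutation (two-sided; 0.1 is the smallest p for 3 against 3); some genes stand in more than 1 list (Sox10, Pdgfra, Cspg4, Vcan, F13a1 and Kdr). Gene positions come from GENCODE (GRCm38) and promoter sequences from RefSeq (GRCm38.p6).

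Alternatives were median-ratio (RLE) size factors, DESeq2 1.42.0, no filter, a stricter filter (1 CPM in 3 libraries and a mean of 5 CPM), the replicate number as a block, a fit restricted to the 2 groups, limma 3.58.1 on log2(RPKM + 1) or log2(RPKM + 0.1), and each library left out. Python 3.11.15 with matplotlib 3.10.9 made the figures.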

Additional observations from a re-analysis of the deposited data

Results flagged for a closer look

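For 4 of the 7 genes the change against the same sham libraries differed between times by a direct test of 1 time against the other (edgeR, BH-adjusted over the 18451 tested genes). At 7 against 3 days the difference was -2.17 for Sema6a, -1.68 for Sema6b, -1.51 for Sema6d and -2.03 for Sema7a on the log2 scale. At 14 against 7 days it was 1.83 for Sema6a, and at 14 against 3 days -1.57 for Sema6b. All 6 differences passed the threshold of 0.05. No test for a single outlying sample was made within the groups of 3 libraries.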

How the results depend on the processing

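Of the log2 fold changes of the 7 genes under the alternatives, 520 kept the direction and the side of the threshold, 27 passed it in addition, 32 no longer passed it and 39 changed sign; no called difference changed sign. For the other receptor, signalling and semaphorin genes that were called, 452 values stayed past the threshold and 171 did not. The causes were not tested. The number of semaphorins called at 3 days against sham (1) was 3 by DESeq2, 2 without a filter and 2 by limma on log2(RPKM + 1); at 7 days against sham (3) it was 0 in the fit of the 2 groups and 1 by limma with either pseudocount. At 14 against 7 days (1) it was 3 by DESeq2, 4 without a filter or in the fit of the 2 groups, 4 with sham replicate 4 and 3-day replicate 3 both left out (chosen after the data were seen), and 0 by limma or with the stricter filter; at 14 against 3 days (1) it was 2 in the fit of the 2 groups. With 1 library left out the counts were 1 to 3 at 3 days, 1 to 3 at 7 days and 0 to 2 at 14 days against sham, 2 to 4 at 7 against 3 days, 0 to 1 at 14 against 7 and at 14 against 3 days, and 3 to 6 of 7 for any difference.

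Over all tested genes, the counts called ran with 1 library left out from 1863 to 4061 at 3 days (3695 with all), 840.0 to 3092 at 7 days (1712) and 705 to 2716 at 14 days (1811) against sham, 572 to 2529 at 7 against 3 days (2466), 1 to 301 at 14 against 7 days (404), 444 to 861 at 14 against 3 days (1349) and 2901 to 6542 for any difference (4872). In the fit of the 2 groups they were 1768, 177 and 911 at 3, 7 and 14 days against sham, 1855 at 14 against 7 days and 4988 at 14 against 3 days. Without a filter they were 2889 and 2822 at 7 and 14 days, 1562 at 14 against 7 and 2045 at 14 against 3 days; DESeq2 gave 2610 at 7 days and 1087 at 14 against 7 days. Limma gave 1137 and 1069 at 7 days (pseudocounts 1 and 0.1) and 218 at 14 against 7 days (0.1), and leaving out both libraries 1823 there. By limma the share of calls that rose was 69.2% and 70.5% at 14 days against sham (51.2% by edgeR), 77.6% and 78.4% at 14 against 7 days (61.9%), 45.6% and 47.1% at 14 against 3 days (29.7%) and 60.9% at 7 days with 0.1 (49.7%), and the median of all genes moved by 0.14 and 0.18 at 14 days against sham, 0.11 and 0.13 at 14 against 7 days, and 0.10 at 3 days with 0.1.

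Sign changes concerned values that were not called. Limma put Sema6a at 0.0316 and 0.0686 and Sema6d at 0.18 and 0.21 at 14 days against sham; Sema6c at 14 against 7 days was 0.00983 with RLE factors, 0.0108 by DESeq2, and 0.0421 and 0.12 by limma. With both libraries left out Sema5b was 0.25 and Sema6d 0.10 at 3 days, Sema5a 0.0634, Sema6a 0.47 and Sema6d 0.61 at 14 days against sham, and Sema6a 0.0256 at 14 against 3 days. With 1 library left out, values at 3 days against sham ran from -0.51 to 0.0799 for Sema5b, -0.28 to 0.83 for Sema6a and -0.65 to 0.60 for Sema6d. At 7 days they ran from -0.77 to 0.30 for Sema6c and -0.0047 to 0.37 for Sema7a, and at 14 days from -1.10 to 0.0806 for Sema5a, -0.57 to 0.49 for Sema6a, -0.69 to 0.28 for Sema6c and -0.48 to 0.63 for Sema6d. At 14 against 7 days they ran from -0.15 to 0.51 for Sema6b and -0.21 to 0.35 for Sema6c, and at 14 against 3 days from -0.49 to 0.0196 for Sema6a and -0.13 to 0.50 for Sema6d. Sums of neutrophil markers at 14 days and of oligodendrocyte precursor markers at 3 days differed from sham by -0.0702 and -4.14 CPM once TMM-scaled.

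The replicate number does not pair the samples: over 13 pairs of libraries with the same number in 2 groups, the correlation of their deviations from the group means was -0.298 to 0.0693, above 0.1 in 0. With the replicate block 3 semaphorins were called at 3 days against sham, 3 at 14 against 7 days (1608 genes) and 5 at 7 against 3 days; Sema5b was at 0.16 and Sema6d at 0.39 at 3 days, and Sema6a at 0.54 and Sema6d at 0.49 at 14 days against sham. The low counts of Sema5b and Sema6c limit what could be detected for them, and the stricter filter gave no value for either.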

Other observations

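Lists of markers of other immune and cord cells, not described above, were read as values beside the semaphorins. Summed markers of border-associated macrophages (10 genes, 8 tested) averaged 1196 ± 121 CPM at 3 days, 1004 ± 199 CPM at 7 days and 576 ± 92.1 CPM at 14 days, against 1075 ± 135 CPM in sham (SD, n = 3). Of the 8, 2 rose and 3 fell at 3 days, 0 rose and 1 fell at 7 days, and 0 rose and 6 fell at 14 days (edgeR). At 3 days Stab1 was at 763, 856 and 772 CPM, against 482.5, 543 and 455 CPM in sham. Mrc1 was at 54.6, 81.1 and 113 CPM at 3 days, against 207, 201 and 336 CPM in sham. The sum at 14 days was lower in 3 of 3 libraries (exact two-sided permutation test, p = 0.1, the smallest that 3 against 3 libraries can give). Summed B cell markers (8 genes, of which 3 were tested and all 3 fell at each time) averaged 199 ± 17.4 CPM at 3 days, 217 ± 80.6 CPM at 7 days and 178 ± 3.86 CPM at 14 days, against 594 ± 191 CPM in sham (exact permutation p = 0.1 each). Neutrophil, T and NK cell and ependymal markers summed to 14.5 CPM or less in each library. Summed Schwann cell markers were 148 to 409 CPM, highest in sham replicate 4.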
